A study of Mus musculus with 15 samples.

Results

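The genes described here are 8 transcription factors of the Sox family, Sox2, Sox4, Sox7, Sox9, Sox11, Sox12, Sox13 and Sox15. They were chosen as a named list and matched by gene symbol in both deposited expression tables of a study of mouse prostate organoids, where all 8 are present among 21886 genes in one table and 14301 in the other. The first table lists 19 Sox genes in all and the second lists 11. RNA was sequenced from prostate epithelial cells of C57BL/6 mice grown as organoids, three-dimensional cultures started from dissociated tissue. In the first table, 4 groups came from 3-month-old mice, and all of them, controls included, had the same background alteration besides the deletions compared here. The double null group also carried Setd2PC-/- together with a knockout of Ezh2, the Ezh2 null group carried the Ezh2 knockout, the Setd2 null group carried Setd2PC-/-, and the control group had no further deletion. In the second table, organoids of 2-month-old mice, whose background alteration was not the same as in the first table, carried either Ezh2 K735R, in which a lysine of the protein is replaced by arginine, or wild-type Ezh2 (Ezh2 WT). The labels do not spell out PC. Each of these 6 groups has 2 libraries, and each library of the first 4 groups is an equal-mass pool of RNA from 3 biological replicates, so the p-values there measure the spread between pools and not between animals. The labels give no pool size for the other two groups.

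Sox proteins share a DNA-binding domain, the HMG box, with the sex-determining factor Sry, and bind the minor groove of DNA around a short core, often beside a partner factor. They are sorted into groups by sequence: Sox2 belongs to group B, Sox4, Sox11 and Sox12 to group C, Sox13 to group D, Sox9 to group E, Sox7 to group F and Sox15 to group G. In the prostate Sox9 is needed for the growth of the epithelial buds in the mouse embryo, and Sox2 is found in basal cells. Ezh2 is the catalytic subunit of Polycomb repressive complex 2, which places the repressive H3K27me3 mark, often over the start sites of silent developmental regulators that lie in CpG-rich DNA. Setd2 places the H3K36me3 mark over transcribed genes.

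Because that complex is known for CpG-rich start sites, the windows just upstream of the member genes are shown for the 4 genes that passed the test in both comparisons of Ezh2 deletion and that RefSeq's promoter table lists. Sox2, Sox12 and Sox13 were higher without Ezh2 and Sox11 was lower. The letters are the 250 bases before the RefSeq start site on the gene's own strand, from build GRCm38.p6, with CpG dinucleotides in capitals. They lie at chr3:34649745-34649994 on the plus strand for Sox2, and on the minus strand at chr2:152398047-152398296 for Sox12, chr1:133424213-133424462 for Sox13 and chr12:27342719-27342968 for Sox11.
Sox2: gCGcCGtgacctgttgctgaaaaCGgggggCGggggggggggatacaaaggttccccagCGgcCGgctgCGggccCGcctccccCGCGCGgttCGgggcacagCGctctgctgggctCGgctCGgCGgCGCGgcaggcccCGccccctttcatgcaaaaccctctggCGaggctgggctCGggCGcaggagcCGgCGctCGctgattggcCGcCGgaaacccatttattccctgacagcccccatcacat
Sox12: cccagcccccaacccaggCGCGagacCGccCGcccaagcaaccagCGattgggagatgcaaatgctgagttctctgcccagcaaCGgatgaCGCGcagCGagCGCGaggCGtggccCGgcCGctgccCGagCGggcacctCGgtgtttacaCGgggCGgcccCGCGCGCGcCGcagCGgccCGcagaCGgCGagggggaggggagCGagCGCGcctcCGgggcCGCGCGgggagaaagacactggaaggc
Sox13: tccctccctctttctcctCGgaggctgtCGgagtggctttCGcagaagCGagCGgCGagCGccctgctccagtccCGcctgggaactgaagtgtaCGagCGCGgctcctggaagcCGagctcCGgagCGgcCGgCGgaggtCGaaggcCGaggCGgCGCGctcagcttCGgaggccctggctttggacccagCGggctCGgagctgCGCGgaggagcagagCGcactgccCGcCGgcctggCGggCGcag
Sox11: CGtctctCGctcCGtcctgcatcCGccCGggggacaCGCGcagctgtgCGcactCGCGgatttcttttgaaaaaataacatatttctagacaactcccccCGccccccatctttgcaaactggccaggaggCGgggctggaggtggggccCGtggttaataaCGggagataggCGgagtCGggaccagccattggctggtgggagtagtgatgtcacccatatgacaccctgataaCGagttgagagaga
The windows hold 27 CpG in Sox2, 35 in Sox12, 31 in Sox13 and 17 in Sox11. Among 32851 promoters of the same length in the table, the median was 6 and the upper quartile 16, and 8.56% held at least as many as Sox2, 2.97% as Sox12, 5.19% as Sox13 and 23.5% as Sox11. The other two listed members held fewer, with 11 CpG in Sox4 (reached by 35.6% of promoters) and 5 in Sox15 (reached by 55.6%). RefSeq's table matched 6 of the 8 members, without Sox7 and Sox9. The Sox core AACAAT, searched on both strands, was in none of the 6 windows and in 9.42% of all promoters. These counts describe the letters and were not tested against expression.

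Reads on listed genes numbered 46915838 to 54231090 in the 4 libraries with the Ezh2 knockout and 29686148 to 34880981 in the 4 without it, and count totals in the second table were 28831228 to 37482322. Each value of a member in the first table rested on 30 to 12975 reads, and in the second on 20 to 7275. Principal component 1 over all genes (81.2% of variance) split the libraries by Ezh2 genotype, and component 2 (6.93%) split library 1 from library 2 within the double null and Ezh2 null groups. Read totals with and without the Ezh2 knockout did not overlap. Depth, or any preparation shared within either set, therefore cannot be told apart from Ezh2 genotype in the first table. Setd2 was at 8.26 RPKM in double null and 9.51 in Setd2 null, against 13.1 in Ezh2 null and 16.5 in control, and Ezh2 at 15.4 in double null and 12.7 in Ezh2 null, against 22.5 in Setd2 null and 20.1 in control. With a single value for each gene, reads of a transcript without its deleted exons can still add to the level. The part of such reads in these levels was not tested. The epithelial label fits the markers: Krt8, a luminal keratin, averaged 703 RPKM in double null and 862 in Ezh2 null, against 1150 in Setd2 null and 1002 in control. The basal list (Krt5, Krt14, Krt15, Trp63 and Krt17) summed to 3594 to 5871 RPKM with the Ezh2 knockout and 2107 to 2646 without it, with most of the sum from Krt5 and Krt15. Krt17 went the other way, at a mean of 219 RPKM in double null, 108 in Ezh2 null, 381 in Setd2 null and 504 in control. Trp63 and Krt14 did not split by the Ezh2 knockout. Trp63 averaged 27.3 RPKM in double null and 17.9 in Ezh2 null, against 18.8 in Setd2 null and 21.3 in control. Krt14 averaged 963 RPKM in double null and 499 in Ezh2 null, against 529 in Setd2 null and 403 in control. Epcam and Cdh1 together, general epithelial markers, summed to 621 to 682 RPKM with the Ezh2 knockout and 1503 to 1703 without it.

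RPKM scales reads by gene length and library size, so levels can be set beside each other between genes. Sox4 and Sox9 were the most abundant members in every library and together made up 61.5% to 71.2% of the summed RPKM of the 8 members with the Ezh2 knockout, against 74.1% to 81.3% without it. The other 6 members summed to 57.8 and 70.8 RPKM in double null and 43.1 and 55.2 in Ezh2 null, against 34.3 and 34.1 in Setd2 null and 33.0 and 33.1 in control. Sox15 followed them in double null, Setd2 null and control, and in Ezh2 null its range overlapped that of Sox13, which followed them there. In control the order went on with Sox13, Sox2, Sox7, Sox11 and Sox12, of which Sox7 overlapped both Sox11 and Sox12. Sox11 came last in double null and Ezh2 null.

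**Figure D1:**
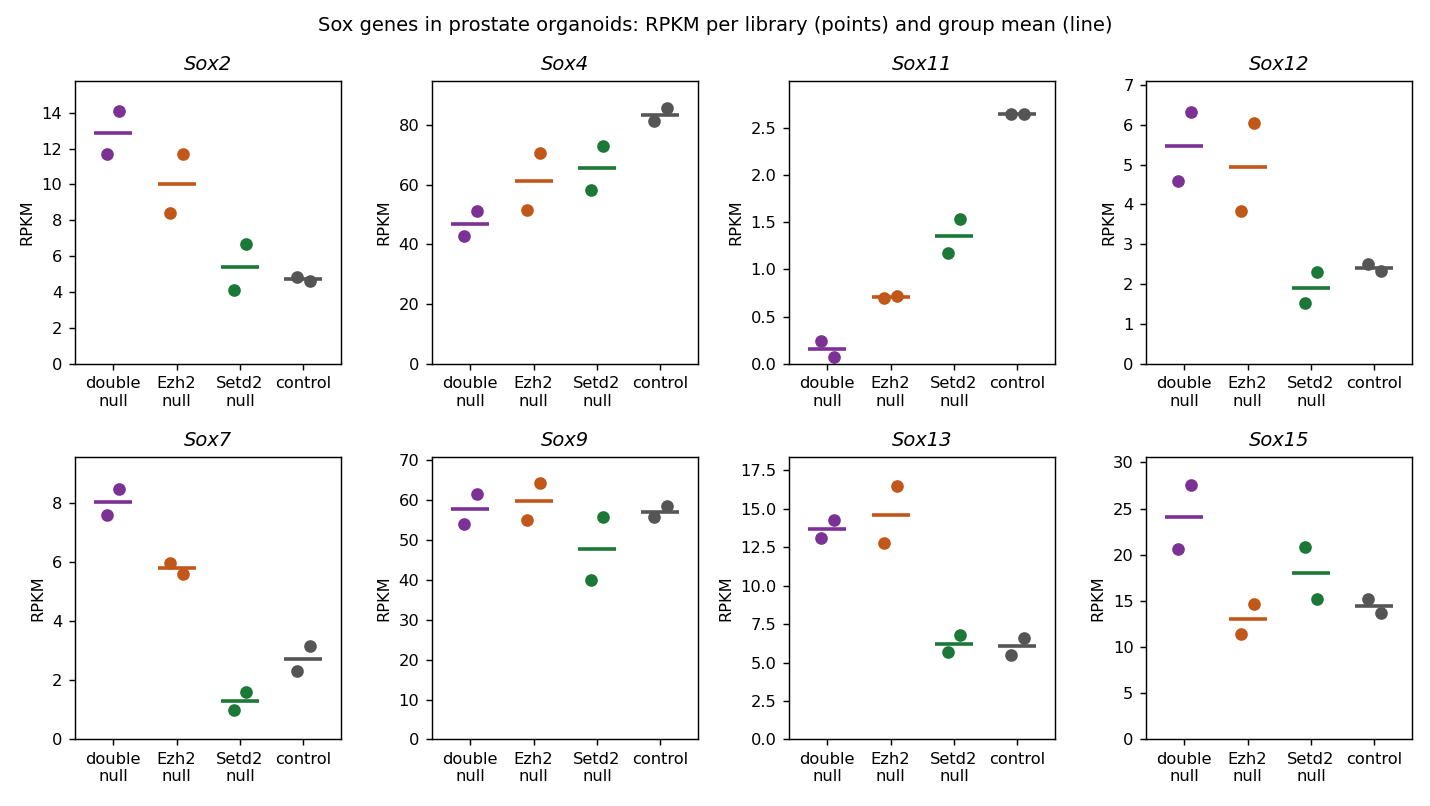
RPKM of the 8 Sox genes (y axes, each from 0) in double null, Ezh2 null, Setd2 null and control organoids (x axes); points are libraries and lines are means of 2. Sox2, Sox7, Sox12 and Sox13 sit higher in both groups with the Ezh2 knockout than in both without it, Sox11 sits lower, and Sox9 overlaps between groups. The share of all genes that split by the knockout was not counted.

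Deletion of Ezh2 was compared in both Setd2 backgrounds, as Ezh2 null against control and as double null against Setd2 null. Sox2, Sox7, Sox12 and Sox13 rose in both comparisons and Sox11 fell in both, each by limma's test on log2(RPKM + 1) adjusted over all genes at 0.05. In Ezh2 null against control 4 members rose and 1 fell, where 36.1% and 20.5% of the 11338 genes tested did so. With Setd2 deleted, 4 rose and 2 fell, where 35.6% and 19.4% of all genes did so, so these counts stand close to the background of a comparison that called 56.6% and 55.0% of all genes. The median log2 fold change of the 8 members was 0.42 in Ezh2 null against control and 0.71 in double null against Setd2 null, beside 0.18 in each over all genes. Quantile normalization brings that median of all genes to 0.0137 and -0.00167, so fold changes of members that passed are also given after subtracting it, as changes relative to the median gene. These are bulk libraries, in which fewer cells of a type and less RNA per cell cannot be told apart. For some members below, libraries with and without the Ezh2 knockout did not overlap. The share of all genes that split in this way was not counted. Component 1 over all genes (81.2% of variance) split the libraries the same way, so the split alone does not set a member apart.

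Sox2, a group B factor that maintains stem and progenitor cells in several epithelia, had 11.7 and 14.1 RPKM in double null and 8.40 and 11.7 RPKM in Ezh2 null, against 4.10 and 6.66 RPKM in Setd2 null and 4.83 and 4.61 RPKM in control. Every library with the Ezh2 knockout lay above every library without it, a split whose share among all genes was not counted. Its log2 fold change was 0.93 ± 0.209 (SE) in Ezh2 null against control (0.76 relative to the median gene, limma adjusted p = 0.00406) and 1.15 ± 0.209 in double null against Setd2 null (0.97 relative to the median gene, adjusted p = 0.00134), and it passed in 12 of 12 alternatives each time. The gene (Entrez 20674) is a single-exon gene of 2467 bases on chromosome 3 (mm10, plus strand, 34649995 to 34652461). RefSeq places it inside the long noncoding gene Sox2ot (34560381 to 34677993), not analysed here. Whether reads in the shared span all come from Sox2 is not given. Among markers of neuroendocrine cells, 5 of 6 averaged under 0.1 RPKM and their sum ranged from 0.728 to 1.52 with the Ezh2 knockout and from 0.960 to 2.07 without it. The summed basal markers given above, mostly Krt5 and Krt15, were higher with the Ezh2 knockout than without it. Within double null and within Ezh2 null, the library with more Sox2 had the higher sum. Within Setd2 null and within control it had the lower sum. The part of the basal markers in the result was not tested.

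The group C genes went different ways. Sox12, a weaker activator than its relatives in reporter assays, had 4.60 and 6.33 RPKM in double null and 3.84 and 6.05 RPKM in Ezh2 null, against 1.53 and 2.29 RPKM in Setd2 null and 2.51 and 2.32 RPKM in control. The libraries with and without the Ezh2 knockout did not overlap. Sox12 rose by a log2 fold change of 0.78 ± 0.211 in Ezh2 null against control (0.60 relative to the median gene, limma adjusted p = 0.0109) and of 1.15 ± 0.211 in double null against Setd2 null (0.97 relative to the median gene, adjusted p = 0.00137). The call against control was lost under quantile normalization (adjusted p = 0.0722), without Ezh2 null library 2 (0.0794) and without control library 2 (0.0602); the alternatives spanned 0.00214 to 0.0794. Sox12 (Entrez 20667) is a single-exon gene of 4436 bases on chromosome 2 (minus strand, 152393611 to 152398046).

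Sox11, a factor of neuronal differentiation in embryos, had 0.243 and 0.0699 RPKM in double null and 0.692 and 0.722 RPKM in Ezh2 null, against 1.17 and 1.53 RPKM in Setd2 null and 2.64 and 2.64 RPKM in control. Its 4 groups did not overlap and stood in a row, with control highest, then Setd2 null, then Ezh2 null, and double null lowest. These values rested on 102 and 30 reads in double null and 325 and 290 in Ezh2 null, against 326 and 461 in Setd2 null and 677 and 680 in control. Its mean over the 8 libraries of 1.21 RPKM passed the filter of 1 RPKM only through the control and Setd2 null libraries, and at such levels log2(RPKM + 1) understates a change. On that scale it fell by 1.09 ± 0.131 in Ezh2 null against control (1.27 below the median gene, limma adjusted p = 9.38e-05) and by 1.02 ± 0.131 in double null against Setd2 null (1.20 below the median gene, adjusted p = 0.000155). With edgeR's quasi-likelihood test on whole reads recovered from the RPKM values, it was 4.22-fold lower in Ezh2 null than in control (adjusted p = 0.00362) and 9.82-fold lower in double null than in Setd2 null (adjusted p = 0.000415). Sox11 (Entrez 20666) is a single-exon gene of 8451 bases on chromosome 12 (minus strand, 27334268 to 27342718).

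Sox4, which acts in progenitor cells and in mesenchymal transition of epithelial tumours and in mouse mammary cells activates Ezh2, had 42.7 and 51.2 RPKM in double null and 51.7 and 70.5 RPKM in Ezh2 null, against 58.2 and 73.1 RPKM in Setd2 null and 81.2 and 85.6 RPKM in control. All libraries of the other 3 groups lay below control, while Ezh2 null and Setd2 null overlapped. The log2 fold change in Ezh2 null against control, -0.46 ± 0.179 (-0.64 relative to the median gene), missed the threshold at a limma adjusted p of 0.052, and it passed in 7 of 12 alternatives, with adjusted p-values from 0.00696 to 0.325. With Setd2 deleted Sox4 fell by 0.47 ± 0.179 (0.65 below the median gene, limma adjusted p = 0.0484), a call lost with no filter on low values (0.0921), without Setd2 null library 2 (0.247) and without double null library 1 (0.218), within a range of 0.00647 to 0.247. Sox4 (Entrez 20677) is a single-exon gene of 2967 bases on chromosome 13 (minus strand, 28950716 to 28953682).

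Sox7, a group F factor known from endothelium and early endoderm and as an antagonist of Wnt signalling in human tumour cells, had 7.59 and 8.48 RPKM in double null and 5.98 and 5.60 RPKM in Ezh2 null, against 0.993 and 1.60 RPKM in Setd2 null and 2.31 and 3.16 RPKM in control. No group overlapped another, and Setd2 null was the lowest. Sox7 rose by 0.87 ± 0.166 in Ezh2 null against control (0.69 relative to the median gene, limma adjusted p = 0.00169) and by 1.99 ± 0.166 in double null against Setd2 null (1.81 relative to the median gene, adjusted p = 9.80e-06), and passed in 11 of 11 alternatives each time. As a ratio of mean RPKM, double null was 6.19 times Setd2 null and Ezh2 null was 2.11 times control. Among endothelial markers, Emcn was at 0 in every library, 7 of 8 averaged under 0.1 RPKM, and the sum ranged from 2.08 to 3.27 RPKM with the Ezh2 knockout and from 0.553 to 0.683 without it. Esam made up most of that sum, with 2.36 RPKM in double null and 2.48 in Ezh2 null, against 0.469 in Setd2 null and 0.477 in control. The other group F genes, Sox17 and Sox18, which also act in endothelium, had at most 1 and 4 reads in any library. Sox7 (Entrez 20680) spans 63943706 to 63950732 on the plus strand of chromosome 14.

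Sox13, a group D factor that lacks an activation domain of its own and in mice acts in gamma delta T cells, had 13.1 and 14.3 RPKM in double null and 12.8 and 16.5 RPKM in Ezh2 null, against 5.68 and 6.80 RPKM in Setd2 null and 5.50 and 6.61 RPKM in control. The libraries split cleanly by the Ezh2 knockout, and the groups that shared an Ezh2 genotype overlapped. Sox13 rose by 1.14 ± 0.155 in Ezh2 null against control (0.96 relative to the median gene, limma adjusted p = 0.000212) and by 1.02 ± 0.155 in double null against Setd2 null (0.84 relative to the median gene, adjusted p = 0.000448), in 12 of 12 alternatives each time. Sox13 (Entrez 20668) spans 133382300 to 133424212 on the minus strand of chromosome 1.

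Sox9, the group E factor of cartilage, hair follicle and prostate buds, had 54.1 and 61.6 RPKM in double null and 55.0 and 64.4 RPKM in Ezh2 null, against 39.9 and 55.8 RPKM in Setd2 null and 55.8 and 58.4 RPKM in control. Only Setd2 null library 1 lay apart from the rest. Its log2 fold change was 0.06 ± 0.171 in Ezh2 null against control (limma adjusted p = 0.785), with the sign turned under quantile normalization, median-ratio scaling and edgeR, and 0.29 ± 0.171 in double null against Setd2 null (adjusted p = 0.183), where leaving out Setd2 null library 2 gave a call (0.0249). Sox15, a group G factor that in mice acts in muscle regeneration, had 20.6 and 27.6 RPKM in double null and 11.4 and 14.7 RPKM in Ezh2 null, against 20.8 and 15.2 RPKM in Setd2 null and 15.2 and 13.7 RPKM in control. Double null overlapped Setd2 null, and Ezh2 null overlapped control. Its log2 fold changes were -0.14 ± 0.191 in Ezh2 null against control (limma adjusted p = 0.542) and 0.40 ± 0.191 in double null against Setd2 null (adjusted p = 0.103, passing without Setd2 null library 1 at 0.0460 and without double null library 1 at 0.0381). Sox9 (Entrez 20682) spans 112782210 to 112787757 and Sox15 (Entrez 20670) spans 69655037 to 69656727, both on the plus strand of chromosome 11. Sox15 shares 31 bases with Mpdu1 on the other strand, whose level was 37.5 RPKM in double null and 22.8 in control, and reads there cannot be assigned without strand.

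**Figure D2:**
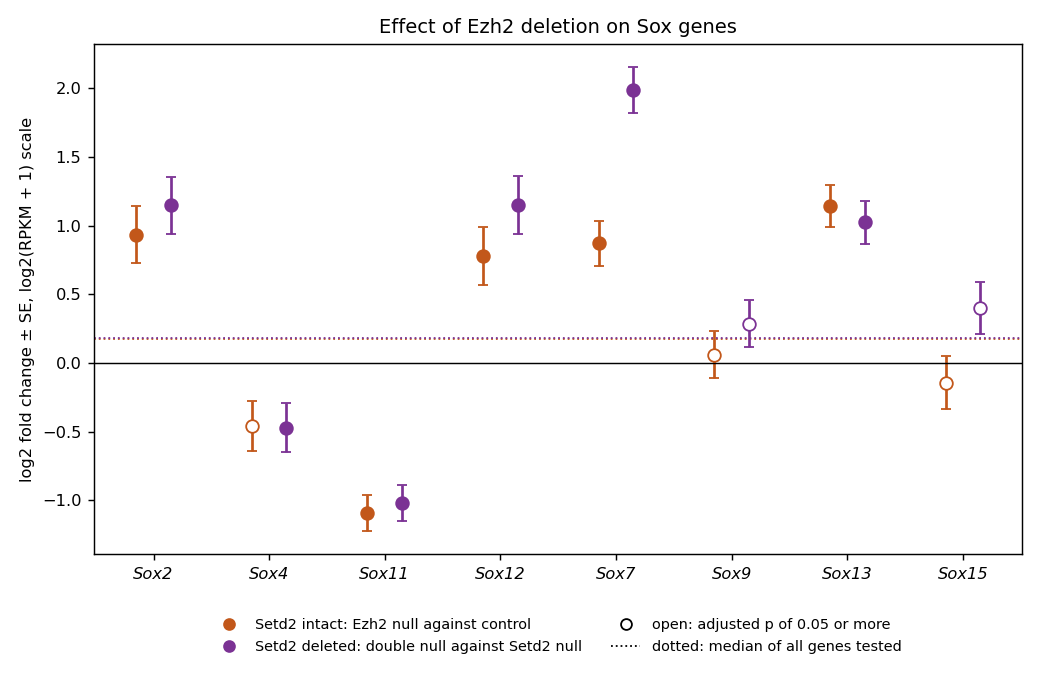
Log2 fold change ± SE (y axis, log2(RPKM + 1) scale) of each Sox gene (x axis) for Ezh2 null against control and double null against Setd2 null; filled points passed limma's adjusted p of 0.05, and dotted lines mark the median of all genes. Sox2, Sox12, Sox7 and Sox13 lie above both lines with filled points and Sox11 lies below with filled points.

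Summed stromal and seminal vesicle markers were higher with the Ezh2 knockout. The stromal list summed to 29.3 to 34.3 RPKM with the knockout and 2.16 to 4.24 without it, and the seminal vesicle list to 40.3 to 57.3 and 0 to 0.10. Of the stromal genes, Dcn was the largest part with the knockout, and Myh11 did not split by it. Acta2 went the other way, at 0.0704 RPKM in double null and 0.156 in Ezh2 null, against 0.678 in Setd2 null and 1.34 in control. The immune list summed to 13.0 to 14.9 with the knockout and 21.9 to 39.5 without it. Of its genes, Cd68 had a mean of 11.1 RPKM in double null, 4.33 in Ezh2 null, 36.3 in Setd2 null and 23.2 in control. Lyz2 went the other way, at a mean of 2.84 RPKM in double null, 7.94 in Ezh2 null and 0 in Setd2 null and control. The sums of the list of Schwann cells and melanocytes overlapped, at 1.97 to 2.03 with the knockout and 1.65 to 2.09 without it. In each of double null, Ezh2 null and Setd2 null, 7 of 8 members were higher in library 2 than in library 1, where 49.3%, 50.5% and 47% of all genes tested were; in control 5 of 8 were, beside 50.4%. The part of these markers and libraries in the Sox results was not tested.

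Deletion of Setd2 was compared as Setd2 null against control and as double null against Ezh2 null. In Setd2 null against control no member passed limma's test, where 1.07% of all genes did (0.379% higher and 0.688% lower). At an unadjusted p of 0.05 there were 2 members, Sox11 and Sox7, where 11.6% of all genes were, and edgeR on the recovered reads called 0. Sox11 had a log2 fold change of -0.64 ± 0.131 (limma adjusted p = 0.0624) and Sox7 of -0.70 ± 0.166 (adjusted p = 0.104). The mean RPKM of control was 1.96 times that of Setd2 null for Sox11 and 2.11 times for Sox7.

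With Ezh2 deleted as well, in double null against Ezh2 null, 1 member rose and 1 fell, where 3.79% and 2.70% of all genes did (6.49% in either direction). Sox15 rose by 0.83 ± 0.191 (limma adjusted p = 0.0311), with both double null libraries above both Ezh2 null libraries and a ratio of means of 1.85. That call was lost with no filter on low values (0.0833), with only the groups compared in the fit (0.114), without Ezh2 null library 1 (0.166) and without double null library 2 (0.204), within a range of 0.0212 to 0.204. Sox11 fell by 0.57 ± 0.131 (limma adjusted p = 0.0322), and by edgeR on reads it was 4.47-fold lower (adjusted p = 0.0251). Its call was lost under quantile normalization (0.0694) and without any 1 of the 4 libraries, namely Ezh2 null library 1 (0.130) or 2 (0.144) and double null library 1 (0.0608) or 2 (0.285), within a range of 0.0164 to 0.285.

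**Figure D3:**
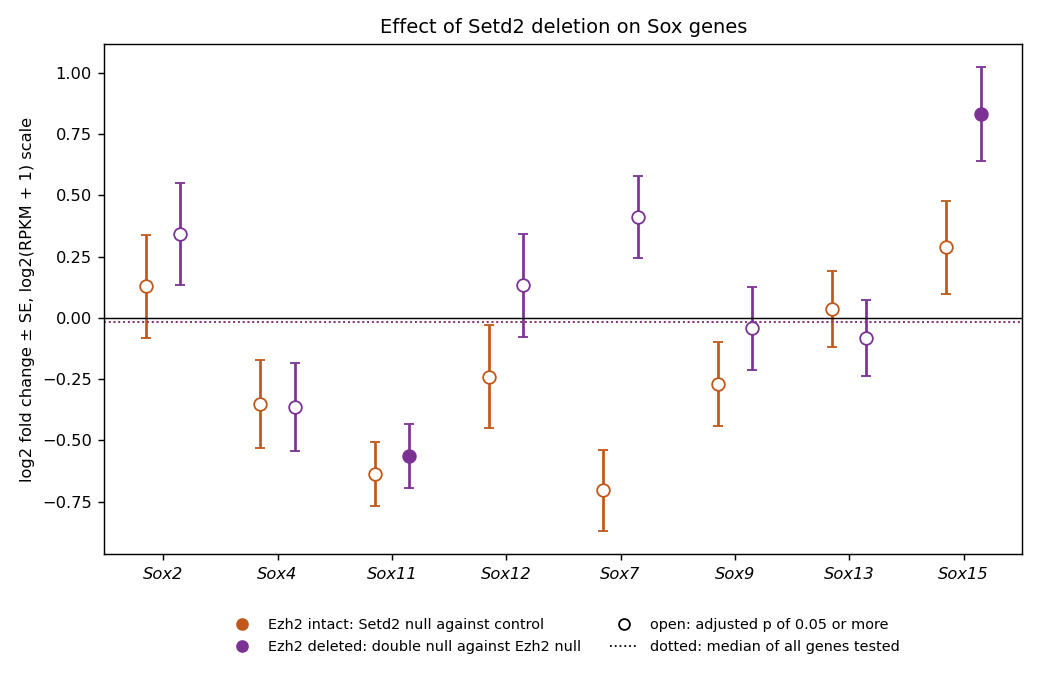
Log2 fold change ± SE (y axis, log2(RPKM + 1) scale) of each Sox gene (x axis) for Setd2 null against control and double null against Ezh2 null; filled points passed limma's adjusted p of 0.05 and dotted lines mark the median of all genes. Sox11 and Sox15 carry the filled points, both in double null against Ezh2 null, and the points of Sox7 lie on opposite sides of 0.

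Whether Setd2 deletion acted differently with and without Ezh2 was tested as an interaction, the difference between those 2 log2 fold changes. Sox7 was the 1 member called, where 2.59% of all genes were (1.69% with a positive and 0.900% with a negative difference). Its log2 fold change for Setd2 deletion was 0.41 ± 0.166 with Ezh2 deleted (limma adjusted p = 0.252) and -0.70 ± 0.166 with Ezh2 intact, and the difference was 1.12 ± 0.235 (adjusted p = 0.0396). The difference stayed positive in 14 of 14 alternatives, from 0.92 to 1.54, but passed the threshold in only 2 of them, with adjusted p-values from 0.0222 to 0.184. Leaving out any library other than Setd2 null library 2 ended the call: without Setd2 null library 1 (0.121), Ezh2 null library 1 (0.0679) or 2 (0.0880), double null library 1 (0.0575) or 2 (0.125), and control library 1 (0.0590) or 2 (0.184). For Sox11 the difference was 0.07 ± 0.185 on the log2(RPKM + 1) scale and -1.22 ± 0.605 by edgeR on reads, with adjusted p-values of 1 and 0.595.

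In double null against control, which differ by both deletions, 5 members rose and 2 fell, where 34.2% and 20.0% of all genes did (54.2% in either direction) and the median gene stood at 0.15. Sox11 had the largest change in size of the 8, a fall by 1.66 ± 0.131 (limma adjusted p = 7.05e-06), and by edgeR on reads it was 18.9-fold lower (adjusted p = 0.000123). Sox4 fell by 0.82 ± 0.179 (limma adjusted p = 0.00386) and passed in 12 of 12 alternatives, with a mean of 47.0 RPKM in double null and 83.4 in control. Sox7 rose by 1.28 ± 0.166, Sox2 by 1.27 ± 0.209, Sox13 by 1.06 ± 0.155, Sox12 by 0.91 ± 0.211 and Sox15 by 0.69 ± 0.191, with limma adjusted p-values of 0.000180 to 0.0129. The call for Sox15 was lost without double null library 2 (0.0925) and without control library 2 (0.0812), within a range of 0.00148 to 0.0925. Sox9 did not pass (0.02 ± 0.171, limma adjusted p = 0.947), and its sign turned under quantile normalization, median-ratio scaling and edgeR. All of these comparisons share libraries with each other, so their values are given side by side and are not independent.

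Of 12 other Sox family genes, Sry included, 1 passed the filter on low values. This was Sox21, a group B factor of hair formation in mice, with 8.31 and 10.7 RPKM in double null and 8.73 and 10.7 RPKM in Ezh2 null, against 2.57 and 3.73 RPKM in Setd2 null and 4.69 and 4.89 RPKM in control. Sox21 rose by 0.88 ± 0.175 in Ezh2 null against control (limma adjusted p = 0.00207) and by 1.34 ± 0.175 in double null against Setd2 null (adjusted p = 0.000172). Sox3 was at 0 in every library. Cartilage genes bound by Sox9 were at low levels throughout, with 0 of 12 passing the filter and a summed level of 0.855 to 1.70 RPKM.

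Among Sox partners and relatives, 7 of 8 genes with an HMG box or a role in Wnt signalling were tested. In Ezh2 null against control 1 of them rose and 3 fell, where 36.1% and 20.5% of all genes did. Tcf7l1, a Wnt pathway repressor, rose by 0.62 ± 0.133 (limma adjusted p = 0.00318). Tcf7, which binds beta-catenin, fell by 1.05 ± 0.153 (limma adjusted p = 0.000317). Ctnnb1, which encodes beta-catenin, fell by 0.51 ± 0.126 (0.00710) and Bbx by 0.43 ± 0.127 (0.0169). Tcf7, Ctnnb1, Bbx and Tcf7l1 moved the same way in double null against Setd2 null. Ctnnb1 averaged 363 RPKM in double null and 433 in Setd2 null. In that comparison 1 gene of the list passed as higher and 2 as lower, where 35.6% and 19.4% of all genes did. Of 8 POU factors, known partners of Sox proteins on DNA, 3 passed the filter on low values. Pou3f3 passed it only through the groups with the Ezh2 knockout, with a mean of 19.8 RPKM in Ezh2 null and 0.0323 in control. Of 5 genes described as targets of group C factors, 3 were tested, and 1 of them is Ezh2 itself. Tead2, a partner of Yap, had 4.52 RPKM in double null, 8.25 in Ezh2 null, 5.82 in Setd2 null and 11.6 in control, and fell by 0.89 ± 0.133 in Setd2 null against control (limma adjusted p = 0.0181), by 0.45 in Ezh2 null against control (0.0166) and by 1.20 in double null against control (6.84e-05). Sema3c, a secreted guidance factor, rose by 0.59 ± 0.190 in Ezh2 null against control (limma adjusted p = 0.0240). It did not pass in double null against Setd2 null, with a mean of 34.2 RPKM in double null and 30.0 in Setd2 null (limma adjusted p = 0.420). Relative to the median gene, the changes of Tcf7l1, Tcf7, Ctnnb1, Bbx, Tead2, Sema3c and Sox21 in Ezh2 null against control kept their sign.

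The genes whose log2(RPKM + 1) followed each member most closely over the 8 libraries were ranked by Pearson's r among 10962 genes, as a description of libraries that share the Ezh2 split. The nearest was Rangap1 for Sox13 (r = 0.997), Klf5 for Sox12 (0.994), Arc for Sox2 (0.990), Fst for Sox7 (0.990), Stx16 for Sox11 (0.987), Prr12 for Sox9 (0.984), Itgb5 for Sox4 (0.982) and Higd1a for Sox15 (0.952). Sox13 had 1294 genes above an r of 0.95 and Sox15 had 1. Between members r was 0.955 for Sox2 with Sox12, 0.944 for Sox12 with Sox13 and 0.939 for Sox2 with Sox13. Sox11 ran with Sox4 (0.880) and against Sox2 (-0.870).

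In the organoids of 2-month-old mice, Ezh2 K735R was compared with Ezh2 WT on counts, given here as CPM (counts scaled by library size and not by gene length). No member passed edgeR's quasi-likelihood test, where 0.00757% of 13203 genes did. At an unadjusted p of 0.05 there was 1 member, Sox12, where 9.24% of all genes were, and DESeq2 and limma on log2 CPM each called 0 members. Sox12 had 10.01 and 9.46 CPM in Ezh2 K735R, against 18.0 and 12.8 CPM in Ezh2 WT, with a log2 fold change of -0.66 ± 0.223 (edgeR adjusted p = 0.494). Sox13 had 21.2 and 19.7 CPM in Ezh2 K735R, against 22.7 and 22.5 CPM in Ezh2 WT (-0.14 ± 0.127, edgeR adjusted p = 0.779).

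Ezh2 WT libraries differed from each other for several members. Sox2 had 14.6 and 17.1 CPM in Ezh2 K735R, against 29.5 and 11.9 CPM in Ezh2 WT. Sox15 had 24.3 and 16.9 CPM in Ezh2 K735R, against 32.6 and 13.3 CPM in Ezh2 WT. Sox11 had 0.737 and 1.77 CPM in Ezh2 K735R, against 0.667 and 2.80 CPM in Ezh2 WT. In these 3 genes both Ezh2 K735R libraries lay between the Ezh2 WT libraries. Without Ezh2 WT library 2, the log2 fold change in Ezh2 K735R was -0.89 for Sox2 and -0.88 for Sox12. That fit assumes the lone Ezh2 WT library to vary like the other group, and its calls over all genes rose far above the main analysis. Sox2 and Sox12 passed the threshold in no other alternative, so their passing there is not read as a Sox result.

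In proportion, the Ezh2 WT libraries differed less for Sox4, Sox9 and Sox7 than for Sox2, Sox11 and Sox15. Sox4 had 148 and 187 CPM in Ezh2 K735R, against 136 and 196 CPM in Ezh2 WT, with a log2 fold change of 0.01 ± 0.220 that turned sign without TMM factors. Sox9 had 163 and 191 CPM in Ezh2 K735R, against 140 and 175 CPM in Ezh2 WT, with a log2 fold change of 0.17 ± 0.149. Sox7 had 7.40 and 11.6 CPM in Ezh2 K735R, against 11.04 and 10.1 CPM in Ezh2 WT, with a log2 fold change of -0.16 ± 0.271. The edgeR adjusted p-values of these 3 genes were 0.775 to 0.992, and those of Sox2, Sox11 and Sox15 were 0.846 to 0.95. Sox21 had 41.3 and 51.6 CPM in Ezh2 K735R, against 53.9 and 72.0 CPM in Ezh2 WT (-0.44 ± 0.190, edgeR adjusted p = 0.580).

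**Figure D4:**
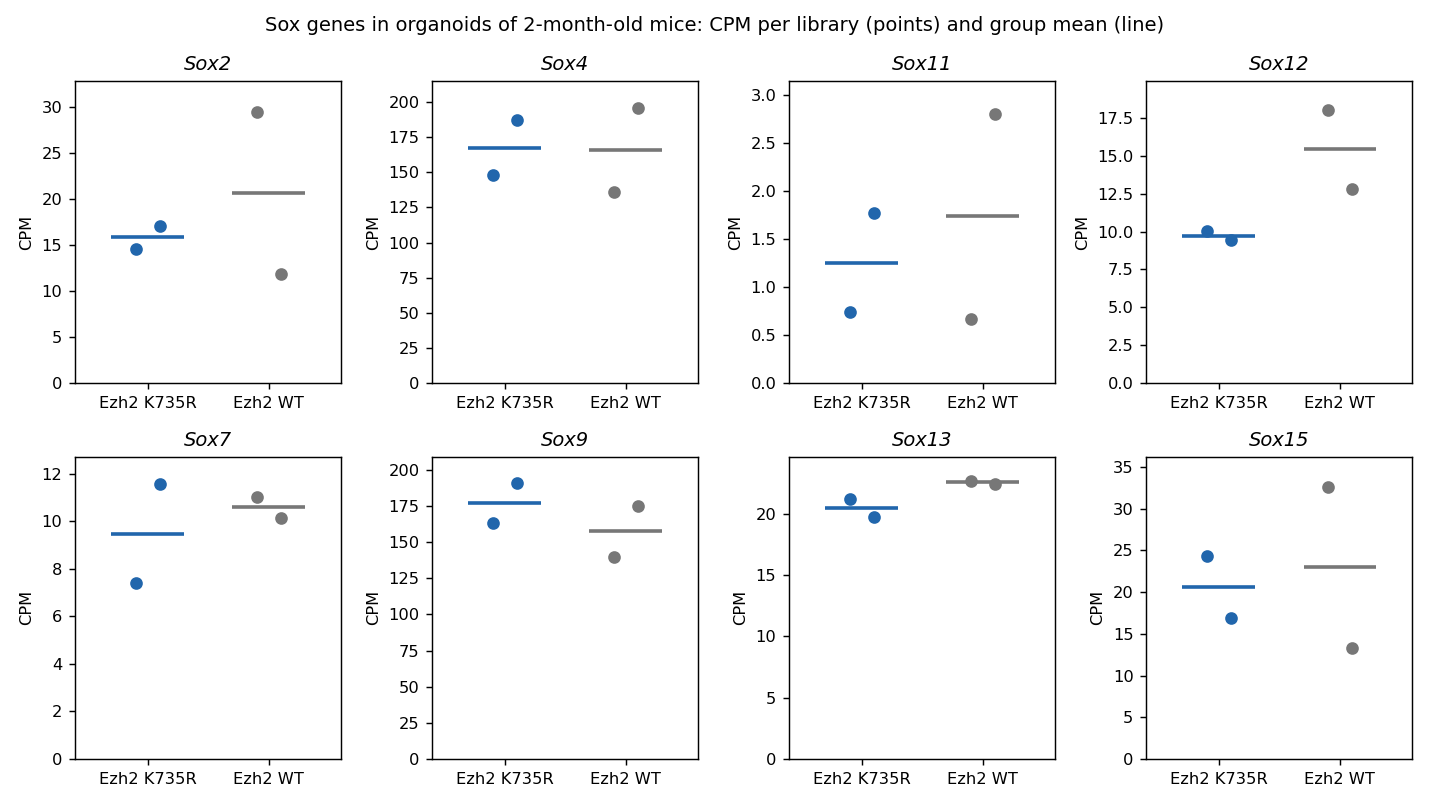
CPM of the 8 Sox genes (y axes, each from 0) in Ezh2 K735R and Ezh2 WT organoids (x axes); points are libraries and lines are means of 2. The Ezh2 WT libraries of Sox2 lie at 29.5 and 11.9 CPM, on both sides of the Ezh2 K735R libraries.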

How the data were processed

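Expression was read from 2 deposited tables of 12 RNA libraries. The other 3 samples of the series (H3K27me3 chromatin and input) were not analysed here. Per the submitters' processing notes, mm10 was the build and the tools included Bowtie, RSEM, BWA and SICER, with no versions. Whether counting used strand or filters: not given in the sources used here. One deposited table holds RPKM per the file headers. The deposited values of the other are whole-number counts, as judged from the values. RPKM values were whole multiples of 1 read for 13744 of 13748 genes above 0 in all 8 libraries (99.97%, within 0.01 reads), which gave reads per gene for a count test.

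RPKM was tested with limma 3.58.1 (R 4.3.3, trended robust moderation) on log2(RPKM + 1) over 11338 genes averaging 1 RPKM or more, with 4 groups in 1 fit. Counts were tested with edgeR 4.0.16 (TMM, filterByExpr, robust quasi-likelihood, 13203 genes). P-values were two-sided, Benjamini-Hochberg adjusted within each comparison and called at 0.05. Both fits were tested on simulated data. Libraries were grouped by GEO's labels. A background alteration of the mice and some luminal markers are not reported here. All 8 members are named, up to 4 genes of each further list by smallest p, and the nearest gene by Pearson's r. Alternatives were a pseudocount of 0.1, no filter, means of at least 5 RPKM or 10 counts, quantile and median-ratio scaling, no TMM, only the groups compared, a replicate block, leaving out each library, edgeR on recovered reads, DESeq2 1.42.0 and limma on log2 CPM. The members and gene lists were chosen with earlier results of these data known.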

Additional observations from a re-analysis of the deposited data

Results flagged for a closer look

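Sox7 was singled out because its response to Setd2 deletion differed with the Ezh2 genotype by a test of the difference itself. The log2 fold change of Setd2 deletion was 0.41 with Ezh2 deleted and -0.70 with Ezh2 intact, a difference of 1.12 (limma adjusted p = 0.0396). It passed in 2 of 14 alternatives. Groups of 2 libraries are too small to look for single outlying libraries.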

How the results depend on the processing

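With a mean of at least 5 RPKM, where fewer members were tested, the members called numbered 3 in Ezh2 null against control (5 in the main analysis), 3 in double null against Setd2 null (6), 4 in double null against control (7), 1 in double null against Ezh2 null (2) and 0 for the interaction (1). Sox7, Sox11 and Sox12, with means of 4.46, 1.21 and 3.68 RPKM over the 8 libraries, were not tested in that setting. Calls these genes had in the main analysis, the interaction of Sox7 included, could not be made there. Over all genes that setting called 4763 of 8243 in Ezh2 null against control and 4583 in double null against Setd2 null. It called 4527 in double null against control, 465 in double null against Ezh2 null and 146 for the interaction. For double null against Ezh2 null the count was also 1 with no filter, 1 under quantile normalization and 0 with only the groups compared. Over all genes these settings called 997 of 17885, 752 of 11338 and 421 of 11383. For the interaction it was 0 with a pseudocount of 0.1, no filter, quantile normalization, median-ratio scaling and edgeR on reads. In that order, those settings called 225 of 11338, 360 of 17885, 272 of 11338, 259 of 11323 and 221 of 14644 genes. Fits that left out 1 library had only 1 left in its group, so their counts of members called are not given here. The cause of the other moves was not tested.

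Values that changed sign were of members that had not passed. Sox9 was at -0.0888 (quantile normalization), -0.12 (median-ratio scaling) and -0.11 (edgeR) in Ezh2 null against control, and at -0.12, -0.14 and -0.14 in double null against control. The interaction was -0.81 (pseudocount of 0.1) and -1.22 (edgeR) for Sox11 and 0.0144 (quantile normalization) for Sox4, and Sox4 was at -0.0233 in Ezh2 K735R against Ezh2 WT without TMM. Leaving out 1 library moved the following log2 fold changes across 0. In Ezh2 null against control Sox9 ran from -0.0533 to 0.17 and Sox15 from -0.31 to 0.0232. Across double null against control, Sox9 ran from -0.0779 to 0.11. In Setd2 null against control Sox2 ran from -0.16 to 0.42 and Sox13 from -0.0769 to 0.15. In double null against Ezh2 null Sox9 ran from -0.16 to 0.0684, Sox12 from -0.14 to 0.41 and Sox13 from -0.25 to 0.0902. The interaction ran from -0.0792 to 0.51 for Sox2, -0.23 to 0.21 for Sox4, -0.011 to 0.46 for Sox9, -0.0386 to 0.18 for Sox11 and -0.29 to 0.0537 for Sox13. In Ezh2 K735R against Ezh2 WT Sox2 ran from -0.89 to 0.41, Sox4 from -0.23 to 0.31, Sox7 from -0.51 to 0.13, Sox11 from -1.24 to 0.91 and Sox15 from -0.65 to 0.63.

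Libraries of different groups share a replicate number, and the labels do not say that it marks a shared animal or day. Deviations of same-numbered libraries correlated at 0.105 to 0.358 between groups of the first table, except 0.933 between double null and Ezh2 null, and at 0.101 between Ezh2 K735R and Ezh2 WT. With the replicate number as a block the members called were 6 in Ezh2 null against control (Sox4 added, limma adjusted p = 0.00696), 6 in double null against Setd2 null, 0 in Setd2 null against control, 2 in double null against Ezh2 null, 7 in double null against control, 1 for the interaction and 0 in Ezh2 K735R against Ezh2 WT. Over all 11338 genes the block moved the calls to 7453 in Ezh2 null against control (6416 without it). They went to 7232 in double null against Setd2 null (6241) and 231 in Setd2 null against control (121). They went to 1078 in double null against Ezh2 null (736), 7168 in double null against control (6147) and 469 for the interaction (294). In Ezh2 K735R against Ezh2 WT the block called 4 of 13203 genes (1 without it). In the share of higher calls, quantile normalization gave 50.1% in Ezh2 null against control (63.8% in the main analysis) and 48.3% in double null against Setd2 null (64.7%). DESeq2 called 293 genes in Ezh2 K735R against Ezh2 WT, where edgeR called 1. With 2 libraries a group, depth limits Sox11 most, at 30 reads in double null library 2, 22 in Ezh2 K735R library 1 and 20 in Ezh2 WT library 1.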

Other observations

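Among Sox genes under the filter on low values, picked here after their values were seen, Sox1 and Sox6 had reads that followed the Ezh2 genotype. Sox1, a group B relative of Sox2 in the neural lineage, had 87 and 154 reads in double null and 27 and 47 in Ezh2 null, against 0 in each Setd2 null and control library. Set against a floor of 3 reads over the 2 libraries at 0, it was at least 54.9-fold higher in double null than in Setd2 null and at least 14.5-fold higher in Ezh2 null than in control. Sox6, a group D relative of Sox13, averaged 0.334 RPKM in double null and 0.315 in Ezh2 null, against 0.0591 in Setd2 null and 0.0353 in control. By edgeR on recovered reads, Sox6 was 7.89-fold higher in Ezh2 null than in control (adjusted p = 0.000112) and 4.97-fold higher in double null than in Setd2 null (adjusted p = 0.000462). Sox8, Sox10, Sox17 and Sox18 stayed at 4 reads or fewer in every library.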
